A study of Homo sapiens with 6 samples.

Results

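The receptors of the epidermal growth factor (EGF) family and their ligands were measured by RNA-seq in cells labelled T24, an established human bladder cancer cell line. The members were taken as the rows of the deposited count table with the symbols EGFR, ERBB2, ERBB3, EREG, AREG, HBEGF, TGFA, BTC and EPGN. All 9 were present among the 56303 genes of the table, 3 receptors and 6 ligands, and all 9 were among the 21298 genes that passed the filter on low counts. The study transfected the cells with a control siRNA (siNC) or with siRNA against FBXL6 (siFBXL6), which encodes an F-box protein, to learn how FBXL6 acts on bladder cancer cells. Each group had 3 libraries, prepared 48 h after transfection from 2 μg of RNA with a stranded mRNA kit. The labels give the genotype as WT for siNC and as FBXL6 knockdown for siFBXL6, and place all 6 libraries in 1 batch. The siNC libraries held 58646515, 60967902 and 56814946 counts, and the siFBXL6 libraries held 60968158, 60898556 and 60754015. The study's methods speak in general of independent replicates. They name 2 siRNAs against FBXL6 (siFBXL6-1 and siFBXL6-2) and 1 siNC, while the libraries of each group are numbered 1 to 3. The sources used here do not say whether the libraries of a group came from separate cultures. Nor do they say whether the numbers of the siFBXL6 libraries stand for different siRNAs. The p-values therefore measure only the spread between these libraries, which may be technical.

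FBXL6, the target of the siRNA, was examined first. Its counts were 362, 414 and 398 in the siNC libraries and 398, 344 and 350 in the siFBXL6 libraries. The groups overlapped, since the first siFBXL6 library equalled the third siNC library. In CPM, the count scaled to library size with TMM factors, FBXL6 measured 6.61 ± 0.38 (SD, n = 3) with siNC and 6.03 ± 0.483 with siFBXL6. The log2 fold change was -0.13 (SE 0.088, 95% interval -0.31 to 0.05), with an adjusted p of 0.247 from edgeR's quasi-likelihood test with Benjamini-Hochberg adjustment over all genes tested. An exact two-sided permutation test gave p = 0.2, where 3 libraries against 3 cannot go below 0.1. Without siFBXL6 replicate 1 the log2 fold change was -0.20 (edgeR adjusted p = 0.112), and without siFBXL6 replicate 2 it was -0.09 (edgeR adjusted p = 0.521). The other libraries left out gave values between these. The counts of FBXL6 thus did not show the knockdown that the label names, and the groups are named below as the libraries labelled siFBXL6 and siNC. SLC52A2, which is transcribed from the other strand, overlaps 31.7% of the exon bases of FBXL6, and the strand setting of the counting is not given in the sources used here. SLC52A2 measured 10 against 11.1 CPM (log2 fold change 0.15, SE 0.069, edgeR adjusted p = 0.078) and was not called. Its part in the counts of FBXL6 was not tested.

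The groups nevertheless stood apart across the transcriptome. The first principal component held 74.6% of the variance and separated the libraries labelled siFBXL6 from those labelled siNC. At an adjusted p under 0.05, 8569 of 21298 genes were called (40.2%). With the siFBXL6 label 4360 genes were higher (20.5%) and 4209 lower (19.8%), a balance that turned to 3930 higher and 4777 lower when counts were scaled by library size alone. The size of the log2 fold change had a median of 0.28 among the genes called. Of the reference genes, ACTB did not differ between the groups at this depth (1168 ± 24.5 against 1168 ± 25.8 CPM, n = 3, log2 fold change 0.00, 95% interval -0.06 to 0.06). GAPDH measured 188 ± 6.15 CPM in the libraries labelled siNC and 657 ± 4.15 in those labelled siFBXL6 (log2 fold change 1.8, 95% interval 1.74 to 1.86, edgeR adjusted p = 4.90e-31), so it could not serve as a constant reference here.

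Marker genes were read to check the labelled cell type. General epithelial genes were abundant, among them KRT7 at 1038 CPM with siNC and 983 with the siFBXL6 label. Of 6 such genes, 4 were called lower (KRT8, KRT19, KRT7 and EPCAM) and 1 higher (CDH1). KRT7 was not called without siFBXL6 replicate 1 (log2 fold change -0.08) or 3 (-0.07). The sum of the 6 was 3414, 3298 and 3399 CPM with siNC and 3090, 3070 and 3079 with the siFBXL6 label. Of 5 basal urothelial genes, 3 were called higher, CD44 (352 against 595 CPM), KRT6A (74.1 against 107 CPM) and TP63 (134 against 152 CPM), KRT5 was called lower (437 against 313 CPM), and KRT14 stood near 1 CPM. The uroplakins UPK1A, UPK1B and UPK3A had at most 6 counts in any library, and UPK2 measured 1.41 against 1.19 CPM. The luminal regulators GATA3 (13.6 against 9.37 CPM) and FOXA1 (13.2 against 10.9 CPM) were called lower. PPARG, the most abundant gene of the luminal list, was not called (66.5 against 63.5 CPM, edgeR adjusted p = 0.124). EPCAM measured 274 against 248 CPM and CDH1, the epithelial cadherin gene, 118 against 132. Of 5 mesenchymal genes, VIM was called higher (15.6 against 25.4 CPM) and CDH2 (138 against 91.7 CPM) and FN1 (2429 against 2180 CPM) were called lower. T24 is often described as rich in VIM and poor in CDH1, so the low VIM beside abundant CDH1, EPCAM and KRT5 is unusual for that line. The study's methods state that the lines were authenticated by short tandem repeats, and the identity of these libraries was not tested here beyond the levels given. Defining genes of leukocytes and endothelium were at a low level, with PTPRC at 0.508 against 0.331 CPM, CD3E at up to 4 counts and CDH5 at 0.122 against 0.177 CPM. The endothelial genes VWF (1.02 against 1.01 CPM) and KDR (1.04 against 1.15 CPM) stood near 1 CPM and were not called. Of 4 fibroblast genes, COL1A1 stood well above 0 (34.9 against 31.5 CPM) and was called lower, while DCN was at 0.192 against 0.199 CPM. The summed level of the 5 leukocyte genes was nevertheless 7.32, 7.66 and 7.47 CPM in the libraries labelled siNC and 20.2, 18.3 and 19.4 in those labelled siFBXL6. That sum was nearly all CD68, a lysosomal membrane gene that many cell types express, at 6.70 against 18.8 CPM, which was the 1 gene of the list that was called. The summed level of the 4 endothelial genes ran from 2.53 to 2.91 CPM with siNC and from 3.25 to 4.07 with the siFBXL6 label, and PECAM1 was the called gene among them (0.573 against 1.39 CPM). The part of these genes in the results below was not tested, and in bulk RNA fewer cells of a type and less RNA per cell cannot be told apart.

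The EGF receptor (EGFR) and its relatives ERBB2 and ERBB3 are receptor tyrosine kinases that pair when a ligand binds and then signal through RAS and ERK and through PI3-kinase and AKT. The ligands are made as membrane-anchored precursors, and proteases of the ADAM family cut them free so that they act on the same or on neighbouring cells. In the bladder, EGFR is found mainly in the basal layer of the urothelium, and ERBB2 and ERBB3 are altered in a share of urothelial carcinomas.

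The 6 ligands share the EGF-like module, a stretch held together by disulfide bonds between its 6 cysteines, which contacts the receptor. The coding sequence of each module is shown because this shared part is what makes them a family. The spacing of the cysteines was searched in the canonical GENCODE coding sequences, and each ligand held 1 such module of 36 codons, encoded by parts of 2 coding exons. On GRCh38 the modules lie, with the intron between their parts, at chr5:140335997-140342711 on the minus strand for HBEGF, chr4:74449172-74450410 on the plus strand for AREG, chr4:74381061-74382675 on the plus strand for EREG, chr2:70456458-70465692 on the minus strand for TGFA, chr4:74750689-74755935 on the minus strand for BTC and chr4:74312229-74313048 on the plus strand for EPGN. The capitals mark the cysteine codons.
HBEGF module: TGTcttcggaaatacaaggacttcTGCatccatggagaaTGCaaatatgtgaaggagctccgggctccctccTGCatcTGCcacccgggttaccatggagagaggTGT
AREG module: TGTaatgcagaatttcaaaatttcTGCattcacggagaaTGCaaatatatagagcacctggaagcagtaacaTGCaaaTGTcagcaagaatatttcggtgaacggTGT
EREG module: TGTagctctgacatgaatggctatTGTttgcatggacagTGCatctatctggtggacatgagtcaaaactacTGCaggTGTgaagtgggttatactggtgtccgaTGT
TGFA module: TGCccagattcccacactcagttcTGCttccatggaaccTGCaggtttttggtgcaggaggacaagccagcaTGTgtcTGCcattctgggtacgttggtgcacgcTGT
BTC module: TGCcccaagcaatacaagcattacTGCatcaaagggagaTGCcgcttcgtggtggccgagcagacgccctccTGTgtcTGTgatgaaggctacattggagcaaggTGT
EPGN module: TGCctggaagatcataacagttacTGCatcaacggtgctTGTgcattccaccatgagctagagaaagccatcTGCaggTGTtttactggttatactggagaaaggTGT

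The capitals fall at the same positions in every module, while the bases between them differ. Over the 108 bases, the modules of TGFA and BTC were the most alike of the 15 pairs, with 68 identical bases (63.0%), and those of EREG and TGFA the least, with 50 (46.3%). AREG and EREG, neighbours on chromosome 4, shared 55 bases (50.9%).

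Of the 9 members, 8 were called, against 40.2% of all genes tested. The members and the gene lists below were chosen with earlier results of these data known, so such shares describe them and test nothing. In the libraries labelled siFBXL6, 5 members were higher (EGFR, HBEGF, AREG, EREG and TGFA), where 20.5% of all genes were, and 3 were lower (ERBB2, BTC and EPGN), where 19.8% were. For each of the 9 the groups did not overlap in CPM, which held for 48.2% of all genes tested. Of the 21298 genes tested, 16193 averaged 1 CPM or more, as did all 9 members. Genes with few counts are less readily called, and no share among genes of like abundance was computed. The 4 abundant ligands were all higher and the 2 scarce ligands both lower. The plot of the members by library shows each value.

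**Figure D1:**
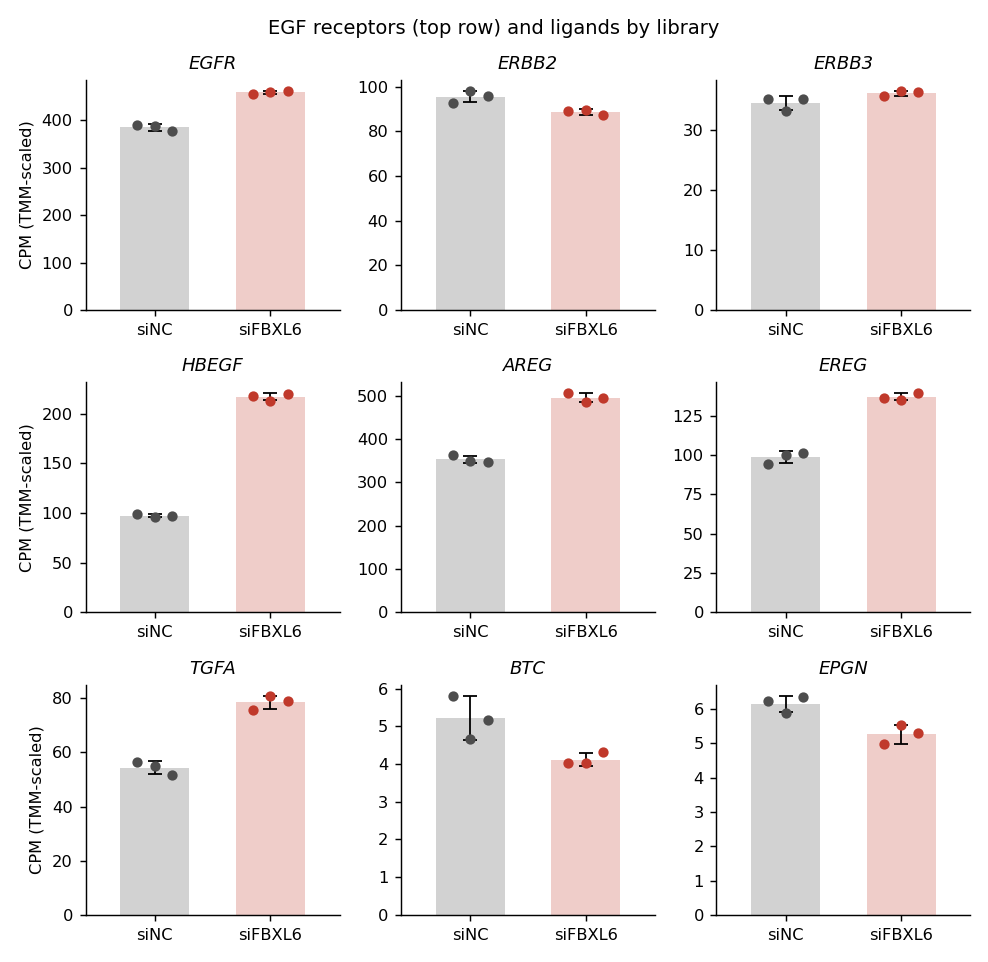
Level of each receptor (top row) and ligand in CPM scaled by TMM factors. Points are libraries, bars are means of 3 libraries and error bars are SD; every axis starts at 0, and HBEGF is the member with the largest fold change, from 97.5 to 217 CPM.

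HBEGF encodes heparin-binding EGF-like growth factor, a ligand of EGFR and ERBB4 (chr5:140332843-140346631, minus strand, 3018 exon bases). It measured 99.2, 95.9 and 97.5 CPM in the libraries labelled siNC and 218, 213 and 220 in those labelled siFBXL6. Every library labelled siFBXL6 lay far above every library labelled siNC, and the libraries of a group lay close together. HBEGF was 2.23-fold higher (95% interval 2.13 to 2.32), a log2 fold change of 1.15 (SE 0.031, edgeR adjusted p = 2.95e-25). Of all genes tested, 2.16% had a larger fold change in either direction, and HBEGF ranked 20 by adjusted p.

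AREG encodes amphiregulin, a ligand of EGFR that epithelial cells make for themselves (chr4:74445134-74455009, plus strand, 1648 exon bases). Its level was 363, 350 and 348 CPM with the siNC label and 506, 487 and 495 with the siFBXL6 label. The groups lay well apart, with the first library the highest in each. The log2 fold change was 0.49 (SE 0.029, edgeR adjusted p = 1.34e-15), a rise of 40.2%. EREG encodes epiregulin, a ligand of EGFR and ERBB4, and lies beside AREG (chr4:74365143-74388751, plus strand, 5717 exon bases). It measured 94.5, 100 and 102 CPM in the libraries labelled siNC and 137, 135 and 139 in those labelled siFBXL6. The groups did not overlap, and the spread was larger among the libraries labelled siNC. The log2 fold change of EREG was 0.47 (SE 0.032, edgeR adjusted p = 4.63e-14), close to that of AREG. The ratio of AREG to EREG on the length-scaled level (CPM per kb of exon) was 12.5 ± 0.774 with siNC and 12.6 ± 0.279 with the siFBXL6 label (n = 3), with overlapping groups and an exact permutation p of 0.9.

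TGFA encodes transforming growth factor alpha, an EGFR ligand named for giving normal cells a transformed growth (chr2:70447280-70554193, minus strand, 4963 exon bases). Its level was 56.4, 54.9 and 51.7 CPM in the libraries labelled siNC and 75.8, 80.7 and 78.9 in those labelled siFBXL6. No library of either group reached the other group. The log2 fold change was 0.53 (SE 0.036, 95% interval 0.46 to 0.60, edgeR adjusted p = 4.90e-14), a rise of 44.4%.

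BTC and EPGN, which encode betacellulin and epigen, stood at a much lower level and moved the other way. BTC had 340, 288 and 297 counts in the libraries labelled siNC and 243, 243 and 260 in those labelled siFBXL6, or 5.81, 4.66 and 5.17 against 4.02, 4.02 and 4.31 CPM. The groups were separate, but the lowest siNC library lay close to the highest of the other group. BTC was lower with a log2 fold change of -0.34 (SE 0.103, 95% interval -0.55 to -0.13, edgeR adjusted p = 0.00786). Without siNC replicate 1, the highest library, BTC was no longer called (log2 fold change -0.25, edgeR adjusted p = 0.067, where the alternatives ran from 0.00351 to 0.067).

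EPGN had 365, 364 and 364 counts with the siNC label and 301, 334 and 319 with the siFBXL6 label, or 6.24, 5.89 and 6.34 against 4.98, 5.53 and 5.29 CPM. The groups did not overlap, and the gap between them was narrow. The log2 fold change was -0.22 (SE 0.089, 95% interval -0.41 to -0.04), just past the threshold (edgeR adjusted p = 0.0428). EPGN was no longer called when siNC replicate 1 was left out (-0.22), nor without siNC replicate 3 (-0.20), siFBXL6 replicate 1 (-0.19) or siFBXL6 replicate 3 (-0.23), with DESeq2 in place of edgeR (-0.22), with the replicate number as a block (-0.22) or without the filter on low counts (-0.23). Over all alternatives the adjusted p of EPGN ran from 0.0261 to 0.151.

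Among the receptors, EGFR was the most abundant and the 1 receptor called higher (chr7:55019021-55211628, plus strand, 12511 exon bases). It measured 390, 388 and 378 CPM in the libraries labelled siNC and 455, 460 and 462 in those labelled siFBXL6. The groups lay clearly apart. The rise was 19.1% (log2 fold change 0.25, SE 0.028, 95% interval 0.19 to 0.31, edgeR adjusted p = 5.24e-09), a size that 37.5% of all genes tested exceeded. EGFR shares 1.49% of its exon bases with the antisense gene EGFR-AS1, which had a log2 fold change of 0.25 as well (SE 0.086, edgeR adjusted p = 0.0183), and with the strand setting unknown the reads of that stretch cannot be told apart. EGFR-AS1 was not called with DESeq2 (0.25) or without siNC replicate 3 (0.16), siFBXL6 replicate 2 (0.20) or siFBXL6 replicate 3 (0.24).

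ERBB2, the receptor with no known ligand of its own and the preferred partner of the others, moved slightly the other way (chr17:39687914-39730426, plus strand). Its level was 92.8, 98.0 and 95.8 CPM with the siNC label and 89.0, 89.6 and 87.2 with the siFBXL6 label. The libraries labelled siFBXL6 were all below the lowest siNC library, by a small margin. ERBB2 fell by 0.11 on the log2 scale (SE 0.032, 95% interval -0.17 to -0.04, edgeR adjusted p = 0.00567). Without siFBXL6 replicate 3 it was not called (log2 fold change -0.10, edgeR adjusted p = 0.051, where the alternatives ran from 0.000448 to 0.051). MIEN1 and PGAP3 share 5.53% and 1.88% of the exon bases of ERBB2 on the opposite strand. Of these, MIEN1 was called in the other direction from ERBB2 (23.3 against 27.9 CPM, log2 fold change 0.26, SE 0.052).

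ERBB3, which binds neuregulins and has a weak kinase, was not called (chr12:56079857-56103505, plus strand). It measured 35.1, 33.1 and 35.1 CPM with the siNC label and 35.6, 36.4 and 36.2 with the siFBXL6 label. The groups did not overlap but nearly touched. The log2 fold change was 0.07 (SE 0.041, 95% interval -0.02 to 0.15, edgeR adjusted p = 0.201), and 0.04 without siNC replicate 2. The levels of the receptors gave an EGFR to ERBB2 ratio, on the length-scaled level, of 3.33 ± 0.121 with siNC and 4.27 ± 0.0846 with the siFBXL6 label (n = 3, exact permutation p = 0.1, the smallest possible). The size of such a ratio depends on the exon lengths used, while its relative change between the groups does not.

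**Figure D2:**
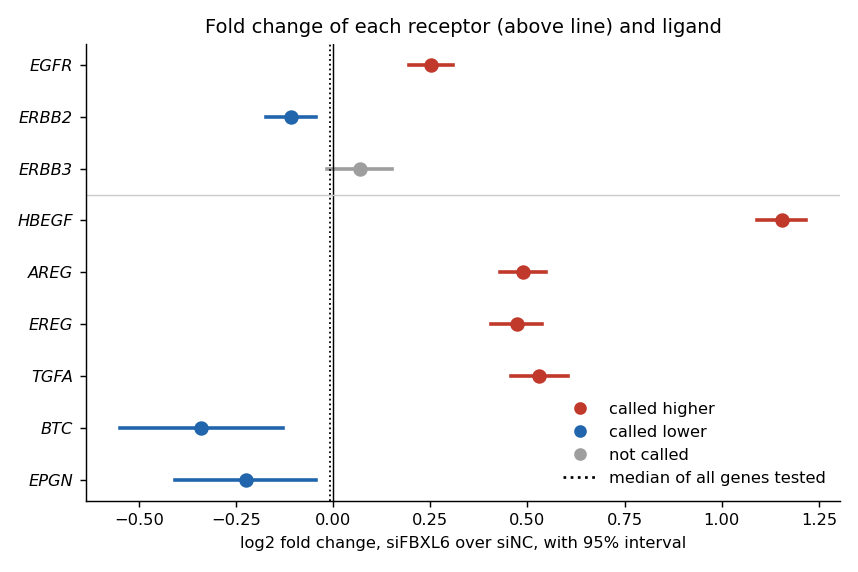
Log2 fold change of each member, libraries labelled siFBXL6 over libraries labelled siNC, with 95% intervals from edgeR (3 libraries per group). HBEGF stands at 1.15, AREG, EREG and TGFA between 0.47 and 0.53, and BTC, EPGN and ERBB2 below 0; the dotted line is the median of all genes tested, -0.0071.

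The members were ordered on the length-scaled level, which divides by all annotated exon bases of a gene, whichever transcripts the cells made. Orders, sums and shares over different genes thus depend on the annotation. The order in CPM differed, as with siNC EGFR (385) stood above HBEGF (97.5) and ERBB2 (95.6) above TGFA (54.3). In both groups the order was AREG, HBEGF, EGFR, EREG, TGFA, ERBB2, ERBB3, EPGN and BTC, and in neither group did the libraries of neighbours in that order overlap. HBEGF and EGFR were the closest neighbours among the abundant members in the libraries labelled siNC, at 32.3 ± 0.535 and 30.8 ± 0.547 CPM per kb (SD, n = 3). In the libraries labelled siFBXL6 they were far apart, at 71.9 ± 1.21 and 36.7 ± 0.291. AREG led with 215 ± 4.97 CPM per kb with siNC and 301 ± 5.95 with the siFBXL6 label. BTC closed the order with 1.85 ± 0.205 and 1.46 ± 0.0601.

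The sum of the 6 ligands on that level was 287, 278 and 277 CPM per kb in the libraries labelled siNC and 423, 410 and 418 in those labelled siFBXL6. The ligand pool was thus larger in every library labelled siFBXL6. The ratio of the means was 1.49 (log2 ratio 0.57), with an exact two-sided permutation p of 0.1, the smallest that 3 libraries against 3 allow. Of the difference between the means, 63.2% came from AREG and 29.0% from HBEGF. The sum of the 3 receptors was 44 ± 0.460 against 49.4 ± 0.292 CPM per kb (n = 3), a ratio of 1.12.

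The makeup of the ligand pool shifted toward HBEGF. Its share of the sum was 11.5%, 11.4% and 11.7% in the libraries labelled siNC and 17.1%, 17.2% and 17.5% in those labelled siFBXL6. The share of AREG was 76.5% ± 0.323 with siNC and 72.2% ± 0.433 with the siFBXL6 label (n = 3), so AREG stayed the most abundant ligand while its share was lower. EREG (6.16% against 5.75%) and TGFA (3.90% against 3.79%) took overlapping shares in the groups. BTC (0.660% against 0.351%) and EPGN (1.21% against 0.697%) took smaller shares in the libraries labelled siFBXL6. Shares of a sum are not independent of each other.

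**Figure D3:**
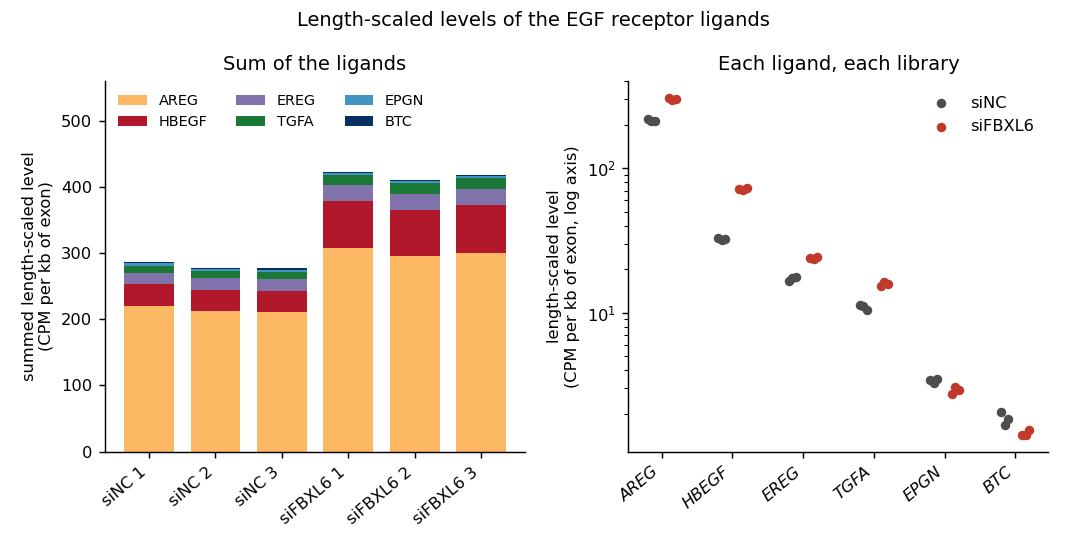
Length-scaled level (CPM per kb of exon) of the 6 ligands. Left, stacked bars give the sum in each library, from 277 to 287 with the siNC label and from 410 to 423 with the siFBXL6 label; right, each point is 1 library on a log axis, with HBEGF, AREG, EREG and TGFA higher and EPGN and BTC lower with the siFBXL6 label.

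EPGN, EREG, AREG and BTC lie on chromosome 4 in this order, within 486 kb. EREG starts 49.8 kb after the end of EPGN, AREG lies 56.4 kb beyond EREG, and BTC, on the opposite strand, 290 kb beyond AREG. The middle pair, EREG and AREG, was higher and the outer pair lower in the libraries labelled siFBXL6. Within 1 Mb on either side, 21 other genes passed the filter, of which 7 were called higher and 1 lower (38.1%, close to the 40.2% of all genes tested). The genes called higher were the neutrophil chemokine genes CXCL2 (log2 fold change 1.70, SE 0.043), CXCL1 (0.98, SE 0.037), CXCL8 (0.89, SE 0.031) and CXCL5 (0.84, SE 0.032), the folate enzyme gene MTHFD2L (0.61, SE 0.080), THAP6 (0.20, SE 0.048) and USO1 (0.16, SE 0.033). RASSF6 was the gene called lower (-0.20, SE 0.044). The chemokine genes CXCL3 and CXCL6 of the same window were not called (edgeR adjusted p = 0.813 and 0.361). MTHFD2L, the neighbour of EPGN on the other side from EREG, thus differed in direction from EPGN. PARM1, the expressed gene next to BTC, measured 3.11 ± 0.183 against 2.75 ± 0.281 CPM (n = 3) and was not called.

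**Figure D4:**
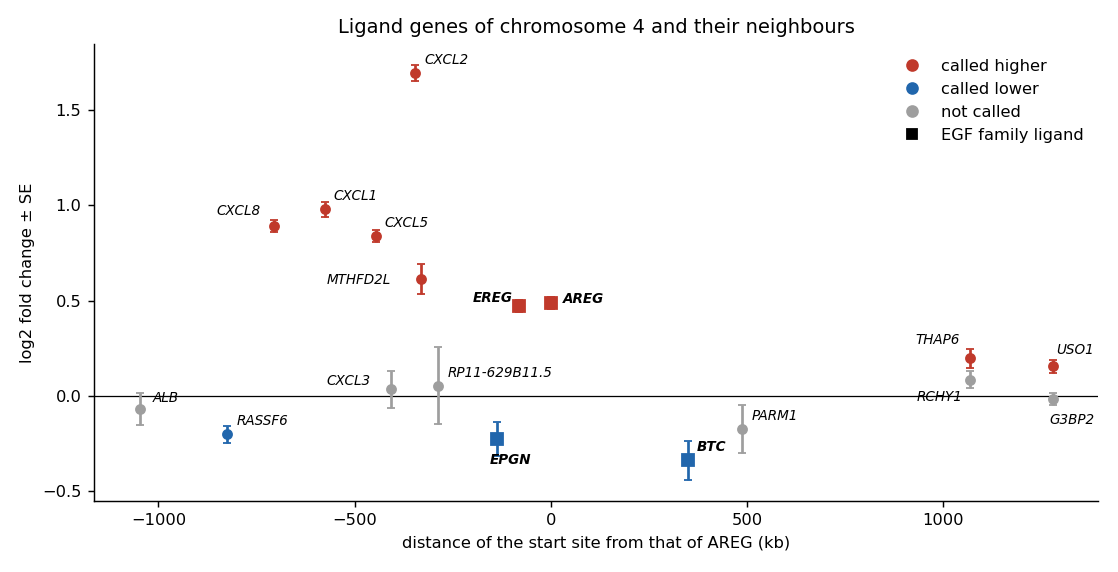
Log2 fold change with SE of the ligand genes of chromosome 4 (squares) and of neighbouring genes that averaged 1 CPM or more (circles), by distance in kb between their start sites and that of AREG. EREG (0.47) and AREG (0.49) lie between EPGN (-0.22) and BTC (-0.34).

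The promoters of the 4 ligands that were higher together are shown, from 250 bases before to 50 after the RefSeq start site (GRCh38.p14). They lie at chr5:140346554-140346853 on the minus strand for HBEGF, chr4:74444886-74445185 on the plus strand for AREG, chr4:74364895-74365194 on the plus strand for EREG and chr2:70553777-70554076 on the minus strand for TGFA, whose more upstream of 2 entries is given. Capitals mark matches on either strand to the AP-1 letters TGANTCA, the CRE letters TGACGTCA, the SP1 letters GGGCGG and the NF-kB consensus.
HBEGF promoter: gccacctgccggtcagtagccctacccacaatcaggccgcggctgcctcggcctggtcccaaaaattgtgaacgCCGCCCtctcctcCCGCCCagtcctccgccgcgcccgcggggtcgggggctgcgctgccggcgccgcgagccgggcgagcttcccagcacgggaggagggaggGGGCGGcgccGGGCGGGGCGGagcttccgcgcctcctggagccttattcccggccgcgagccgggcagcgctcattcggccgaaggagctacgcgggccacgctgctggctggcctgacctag
AREG promoter: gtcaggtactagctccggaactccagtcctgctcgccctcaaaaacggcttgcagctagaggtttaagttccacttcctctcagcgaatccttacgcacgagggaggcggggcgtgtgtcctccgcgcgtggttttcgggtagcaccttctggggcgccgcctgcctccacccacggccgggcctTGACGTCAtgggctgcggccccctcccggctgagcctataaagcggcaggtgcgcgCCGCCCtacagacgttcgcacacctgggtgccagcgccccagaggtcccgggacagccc
EREG promoter: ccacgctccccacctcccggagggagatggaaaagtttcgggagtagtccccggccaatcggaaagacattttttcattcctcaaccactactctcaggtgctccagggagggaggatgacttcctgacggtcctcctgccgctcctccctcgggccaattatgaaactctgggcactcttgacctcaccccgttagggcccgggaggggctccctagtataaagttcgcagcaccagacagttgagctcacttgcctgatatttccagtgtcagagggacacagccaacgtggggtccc
TGFA promoter: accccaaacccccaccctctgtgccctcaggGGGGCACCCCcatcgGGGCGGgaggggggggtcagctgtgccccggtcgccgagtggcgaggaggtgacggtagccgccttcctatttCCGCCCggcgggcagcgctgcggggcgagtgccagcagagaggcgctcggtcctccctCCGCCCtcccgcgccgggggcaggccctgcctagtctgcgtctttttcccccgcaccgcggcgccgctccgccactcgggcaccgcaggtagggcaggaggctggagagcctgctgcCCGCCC

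None of the 4 motifs was held by all of these promoters. AREG held the CRE letters, which begin 65 bases before its start site, and 1 match to the SP1 letters. HBEGF held 5 matches to the SP1 letters, 2 of which share a base, and TGFA held 4 and 1 match to the NF-kB consensus, with none in its second entry. EREG held none of the 4 motifs. Of the other members, EGFR held 3 matches to the SP1 letters in its first entry and 2 to the AP-1 letters in a second, internal entry, ERBB2 held 1 to the AP-1 letters, BTC 1 to the SP1 letters and EPGN none, while ERBB3 had no entry. Among 35116 human promoters of the same length, 7.71% held the AP-1 letters, 1.85% the CRE letters, 45.0% the SP1 letters and 5.91% the NF-kB consensus. A match describes letters, not binding.

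Of the remaining genes of the family, which are ERBB4, EGF and the neuregulin genes NRG1 to NRG4, 5 passed the filter, none was called higher and 2 were called lower (40% against 40.2% of all genes tested). ERBB4, the receptor that shares several ligands with EGFR, measured 1.13, 1.18 and 1.15 CPM with the siNC label and 0.463, 0.662 and 0.780 with the siFBXL6 label. The groups were separate at this low level (log2 fold change -0.86, SE 0.231, edgeR adjusted p = 0.00291). NRG4, chosen after its values were seen, was lower as well, at 11.3 against 8.4 CPM (log2 fold change -0.43, SE 0.073). NRG1 measured 47.4 against 48.8 CPM and was not called, and EGF itself was at 0.383 against 0.315 CPM.

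Sheddases release the ligands, ADAM17 with its partners RHBDF1 and RHBDF2 acting on AREG, EREG, HBEGF and TGFA, and ADAM10 on BTC and EGF. Of 13 such genes and their partners, all tested, 7 were called higher and 2 lower (69.2% against 40.2% of all genes tested), with a median log2 fold change of 0.12. TIMP3, an inhibitor of ADAM17, rose from 92.9 ± 1.03 to 152 ± 1.62 CPM (n = 3, log2 fold change 0.71, SE 0.030, edgeR adjusted p = 1.76e-19). ADAM8 was higher at a low level (1.15 ± 0.215 against 3.66 ± 0.0687 CPM, log2 fold change 1.66). ADAM12 had between 0 and 55 counts, and its call (log2 fold change 1.53) was lost with DESeq2 (1.52) and without siFBXL6 replicate 2 (1.35). Its value moved to 2.43 without siNC replicate 1 and to 0.93 without siNC replicate 2. The genes called lower were ADAM10 (303 against 251 CPM, log2 fold change -0.28, SE 0.030) and ADAM9 (-0.11, SE 0.031). ADAM17 itself measured 111 against 121 CPM (log2 fold change 0.12, SE 0.036) and was not called without siNC replicate 2 (0.10) or siNC replicate 3 (0.09). RHBDF2 was higher, at 20.7 against 26.9 CPM (0.38, SE 0.047). ADAM9, ADAM10, ADAM17 and RHBDF2 were chosen after their values were seen.

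Adaptors and the kinase cascade showed no common direction. Of 23 adaptor and proximal signaling genes, 6 were called higher and 8 lower (60.9% against 40.2% of all genes tested), with a median log2 fold change of -0.0112, close to the -0.0071 of all genes tested. VAV2 was the 1 gene past 0.5 in size (137 ± 3.07 against 96.2 ± 0.472 CPM, n = 3, log2 fold change -0.51, SE 0.031, edgeR adjusted p = 1.42e-15). Of 18 genes from RAS to ERK and AKT, 3 were called higher and 5 lower (44.4%, near the 40.2% of all genes), with a median of -0.0087. NRAS (28.7 ± 1.25 against 43.0 ± 1.14 CPM, log2 fold change 0.58, SE 0.043) and the ERK kinase gene MAP2K1 (132 ± 5.75 against 189 ± 3.30 CPM, 0.51, SE 0.033) were higher. Of the other calls, MAPK3 at -0.34, MAP2K2 at -0.18 and AKT1 at -0.09 were chosen after their values were seen. AKT1 was not called without siNC replicate 3 (-0.08) or siFBXL6 replicate 1 (-0.09) or 2 (-0.09).

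Of 25 genes that restrain the receptors or sort them in endocytosis, 11 were called higher and 6 lower (68.0% against 40.2% of all genes tested), with a median log2 fold change of 0.06. ERRFI1, which encodes the inhibitor MIG6 that binds the EGFR kinase domain, measured 117, 118 and 120 CPM with the siNC label and 189, 185 and 192 with the siFBXL6 label. The groups lay far apart (log2 fold change 0.67, SE 0.030, edgeR adjusted p = 8.00e-19). SH3KBP1, an adaptor of CBL in receptor endocytosis, was also higher, at 155 ± 3.15 against 226 ± 1.46 CPM (n = 3, 0.54, SE 0.030). The genes called lower, chosen after their values were seen, were the ubiquitin ligase genes CBLB (-0.46, SE 0.067), CBL (-0.23, SE 0.049) and CBLC (-0.20, SE 0.057) with EPN1 (-0.31, SE 0.035), LRIG3 (-0.31, SE 0.068) and PTPRJ (-0.24, SE 0.040). CBLC was not called without siNC replicate 2 (-0.13). Other ubiquitin ligase genes of the list, NEDD4 (0.35, SE 0.033) and RNF41 (0.25, SE 0.048), were called higher.

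Negative regulators of ERK signaling were called in 12 of 13 cases, 8 higher and 4 lower (92.3% against 40.2% of all genes tested), with a median log2 fold change of 0.20. The number called ran from 10 to 12 under the alternatives. DUSP5, a nuclear ERK phosphatase, was 11.3 ± 0.553 CPM with siNC and 17.5 ± 0.464 with the siFBXL6 label (n = 3, log2 fold change 0.64, SE 0.060, edgeR adjusted p = 1.08e-10). DUSP6 (98.6 against 137 CPM, 0.48, SE 0.033) and DUSP4 (80.7 against 107 CPM, 0.40, SE 0.031), which also encode phosphatases that act on ERK, were higher too. The genes called lower were SPRY1 (-0.42, SE 0.092), SPRED3 (-0.41, SE 0.089), NF1 (-0.34, SE 0.036) and SPRY2 (-0.12, SE 0.047). SPRY2 lost its call under 10 of 13 alternatives, among them leaving out any of the 6 libraries, which gave values from -0.13 to -0.09. DUSP4, DUSP6 and the genes called lower were chosen after their values were seen.

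Of 30 genes known to be induced by growth factors, 18 were called higher and 4 lower, 73.3% against 40.2% of all genes tested, with a median log2 fold change of 0.29. PHLDA1 (148 ± 5.95 against 245 ± 4.49 CPM, log2 fold change 0.72, SE 0.032) and PLAUR, the urokinase receptor gene (235 ± 11.6 against 375 ± 9.72 CPM, 0.67, SE 0.033), were higher by similar amounts (n = 3). MAFF (0.64, SE 0.039) and ETV5 (0.62, SE 0.098), genes of transcription factors, followed. Among other immediate early genes, chosen after their values were seen, directions were mixed. FOS (0.46, SE 0.106), FOSL1 (0.41, SE 0.033), IER3 (0.40, SE 0.030), JUN (0.32, SE 0.029) and EGR1 (0.17, SE 0.039) were called higher, JUNB was called lower (-0.57, SE 0.049), and EGR2, EGR3, FOSB and IER2 were not called. IER2 was called lower without siNC replicate 1 (-0.14), and EGR3 was called higher with the filter of 10 counts in every library (0.85). The other genes called lower, chosen likewise, were CTGF, now CCN2 (-0.61, SE 0.082), ATF3 (-0.30, SE 0.054) and KLF10 (-0.19, SE 0.032). These lists hold genes that many other signals induce as well, and no list was tested as a set. The 40.2% covers all genes tested, also those with few counts, and no list was set against genes of like abundance.

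**Figure D5:**
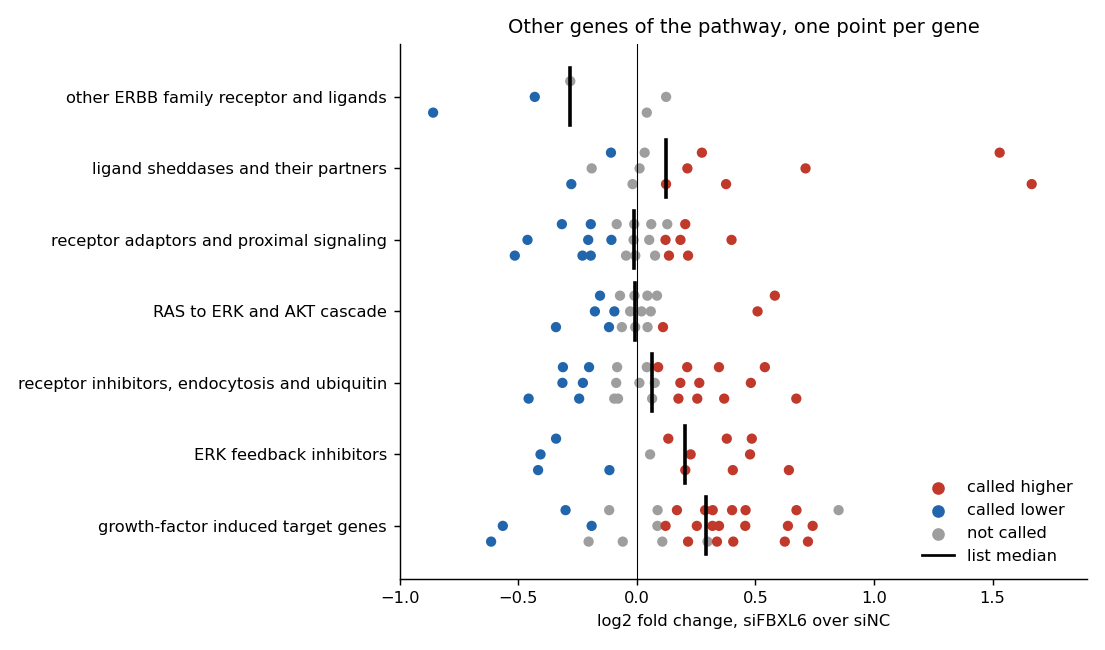
Log2 fold change of each tested gene of the 7 pathway lists, libraries labelled siFBXL6 over siNC. Each point is 1 gene and each black line the list's median; the feedback inhibitors (0.20) and the growth-factor induced genes (0.29) have the highest medians, and the adaptors (-0.0112) and the cascade (-0.0087) lie at the median of all genes tested.

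Genes whose pattern over the 6 libraries was most like that of EGFR and HBEGF were found among the 16193 genes that averaged 1 CPM or more, by the root mean square difference of log2 CPM with each gene centred on its siNC mean. For EGFR they were CAP1 (difference 0.00593), NCKAP1 (0.0136) and YARS (0.0141). For HBEGF they were SAMD4A (0.0215), LCN2 (0.0296) and RPL22L1 (0.0317). LCN2, which encodes lipocalin 2, was a very abundant gene, at 4038 ± 14.2 CPM with siNC and 8963 ± 340 with the siFBXL6 label (n = 3, log2 fold change 1.15, SE 0.026). The likeness is a description of 6 libraries in 2 groups.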

How the data were processed

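RNA-seq counts of T24 cells labelled siNC or siFBXL6 were analysed, 3 libraries per group, and all members were read from 1 fit over the whole table. The study's methods name Trimmomatic and HISAT2 for trimming and alignment, whereas the submitters' processing notes name fastp (0.23.0) and STAR. Both name GRCh38 and featureCounts (Subread 1.5.1), and the strand setting is not given in the sources used here. The authors deposited raw counts per gene without normalization. Library totals ran from 56814946 to 60968158 counts, and libraries of 1 group differed by more than counting noise (chi-square per degree of freedom 2.76 to 5.80).

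Genes were filtered with filterByExpr at its default (21298 kept), scaled by TMM and tested with edgeR 4.0.16 (quasi-likelihood, condition as the only term, R 4.3.3), with Benjamini-Hochberg adjustment over all genes tested and calls at an adjusted p under 0.05. Single values were compared by exact two-sided permutation. The biological coefficient of variation was 3.57%. The length-scaled level is CPM divided by the exon length in kb given in the table, which covers all annotated exons of a gene. The members and the gene lists were chosen with earlier results of these data known. Named were all members, FBXL6, ACTB and GAPDH, from each list the called genes whose log2 fold change was 0.5 or more in size (at most 5, otherwise the 2 with the smallest adjusted p; 1 gene that met this rule is not named), the genes called within 1 Mb of the chromosome 4 ligands, and the 3 genes nearest in pattern to EGFR and HBEGF. Modules came from GENCODE 44 and promoters from RefSeq, where 8 of the 9 members had an entry. The alternatives were DESeq2 1.42.0, other scalings and filters, the replicate number as a block, and each library left out. The fit was tested on simulated data, where 87 of 100 genes changed 1.5-fold and 100 of 100 changed 2-fold were called. Of the 190 calls there, 3 were false. Smaller changes, such as those of all members but HBEGF, were not simulated.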

Additional observations from a re-analysis of the deposited data

How the results depend on the processing

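Of 117 values of the 9 members under the alternatives, 108 kept their direction and their side of the threshold, and the other 9 kept their direction but were no longer called; the cause was not tested. EPGN was lost with DESeq2 (-0.22), without a filter on low counts (-0.23) and with the replicate block (-0.22), each of which left 1 ligand called lower in place of 2. Leaving out 1 library gave log2 fold changes from -0.26 to -0.19 for EPGN, from -0.42 to -0.25 for BTC and from -0.13 to -0.09 for ERBB2, with 0 to 2 ligands and 0 to 1 receptors called lower. EGFR, HBEGF, AREG, EREG and TGFA were called higher under all 13 alternatives, HBEGF between 1.13 and 1.17. The log2 ratio of the ligand sum ran from 0.55 to 0.59. Genes called numbered from 7015 (DESeq2) to 8707 (library size alone), and genes called lower outnumbered those called higher with upper-quartile factors (4718 against 3972) and with library size alone (4777 against 3930). The replicate numbers did not pair the libraries, with correlations of same-numbered deviations of -0.038, 0.013 and -0.01, and the replicate block called 8408 genes. Of 1385 values of other genes followed, 1350 stayed on their side of the threshold, 33 were no longer called and 2 were newly called. With 243 to 365 counts per library, BTC and EPGN were measured less precisely than the other members, which had at least 2014 counts in each library.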
